A study of Mus musculus with 8 samples.

Results

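Rasl11b and Rasd1 encode small GTPases of the Ras superfamily and were 2 of 20741 genes measured in the suprachiasmatic nucleus (SCN), the circadian pacemaker of the mouse hypothalamus. They were taken by gene symbol from every deposited table, and the pair was selected on its level over circadian time in these same 8 libraries. Polyadenylated RNA came from C57/BL6 mice entrained to 12 h of light and 12 h of dark and then moved to constant darkness, with RNA of 3 mice pooled in each library. The 8 libraries were collected every 6 h and fall on 4 circadian times (CT) with 2 libraries each, 1 from each cycle. CT4 and CT10 belong to the subjective day, and CT16 and CT22 to the night that follows. The same strain and housing held for all groups, and there was no treatment. The labels give no replicates, so the libraries 24 h apart stand in for them, and any p-value measures spread between pools, not between mice.

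Small GTPases switch signalling on when they bind GTP and off when they hydrolyse it, and exchange factors (GEFs) and GTPase-activating proteins (GAPs) drive those steps. Rasl11b belongs to a little-studied Ras-like branch, and in zebrafish it has been linked to Nodal signalling in the early embryo. Rasd1, also called Dexras1, was named for its induction by the glucocorticoid dexamethasone. Its protein can activate inhibitory G proteins without a receptor and is tied to neuronal nitric oxide synthase by the adaptor Nos1ap, and in mice its loss alters how the SCN clock responds to light.

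Rasl11b lies on the plus strand of mm9 chromosome 5 (74591292-74595640, ENSMUSG00000049907) and Rasd1 on the minus strand of chromosome 11 (59776565-59778488, ENSMUSG00000049892). Rasl11b has 4 exons and 3 introns, and Rasd1 has 2 exons and 1 intron. The intron lengths in the deposited mm9 tables (512, 1107 and 765 bases in Rasl11b, 153 in Rasd1) equal those of the GENCODE M21 transcripts on GRCm38. The encoded proteins have 247 amino acids for Rasl11b and 280 for Rasd1. No other gene of the table overlaps either of them. The spliced messages are recognised by reads across the exon joins. The coding sequences at these joins are given below because the junction reads described later fall on them, with 15 bases of the upstream exon in lower case and 15 of the downstream exon in capitals (GENCODE M21).
Rasl11b junction 1: gcgtgggcaagaccgCTTTGGTGGTCCGAT
Rasl11b junction 2: acgaacgaaatgcagGTAATCTCTACACAA
Rasl11b junction 3: actccgggcatccagGTGCACGAGAATGGC
Rasd1 junction 1: tctctatcctcacagGAGACGTTTTCATTC

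The promoter of Rasl11b was read for short motifs because the gene followed circadian time in these libraries. It is shown from 250 bases before to 50 after the start (RefSeq, GRCm38.p6, chr5:74195076-74195375, plus strand), with the only motif match in capitals.
Rasl11b promoter: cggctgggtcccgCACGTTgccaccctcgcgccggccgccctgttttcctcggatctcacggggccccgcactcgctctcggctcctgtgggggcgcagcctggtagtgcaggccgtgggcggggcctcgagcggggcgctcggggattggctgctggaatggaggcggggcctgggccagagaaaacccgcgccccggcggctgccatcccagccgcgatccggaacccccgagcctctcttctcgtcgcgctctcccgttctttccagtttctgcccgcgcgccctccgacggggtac
The match is CACGTT, an E'-box, which begins 237 bases before the start. On both strands, CACGTT occurred in 4.68% of 32851 mouse promoters of the same length. The window held no CACGTG (E-box, in 7.15% of promoters), TTATGTAA (D-box, 0.938%), TGACGTCA (CRE, 1.79%), TGACG (the shorter CRE core, 20.8%), AGGTCA (RORE core, 16.3%) or AGAACA (the core of a glucocorticoid response element, 19.0%). The shorter TGACG is contained in TGACGTCA. GC bases made up 73.0% of the window. A match is a description of the letters and says nothing about binding.

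Sense-strand reads assigned to genes numbered 11123610 to 11131890 per library. All 14 markers fixed for SCN neurons had reads in every library, with a summed level of 685 to 1361 CPM (reads scaled to a common effective library size). Markers of other cells were also present: the 12 oligodendrocyte markers summed to 5097 to 15960 CPM and the 8 astrocyte markers to 4120 to 4943 CPM. Of 7 arcuate markers, 5 had reads in every library, with sums of 21.0 to 108 CPM. In such bulk samples fewer cells of a type cannot be told apart from less RNA per cell.

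Rasl11b RNA was highest early in the subjective day and lowest early in the subjective night, in both cycles. It had 53.9 and 64.6 CPM at CT4, 24.4 and 22.7 at CT10, 12.7 and 10.1 at CT16, and 20.4 and 21.6 at CT22 (first and second cycle). Both CT4 libraries were the highest and both CT16 libraries the lowest, and no groups overlapped, although CT10 and CT22 lay close together. Means were 59.3 ± 7.55 CPM at CT4, 23.6 ± 1.21 at CT10, 11.4 ± 1.82 at CT16 and 21.0 ± 0.863 at CT22 (SD, n = 2 each). CT10 and CT22 were the closest neighbours in this order, 1.12-fold apart in means. Within each cycle, CT4 exceeded CT16 by 4.25-fold in the first and 6.39-fold in the second.

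Rasd1 RNA ran the other way, with its lowest level at CT4 in both cycles and its highest in the subjective night. It had 35.9 and 33.9 CPM at CT4, 56.3 and 59.4 at CT10, 93.5 and 69.7 at CT16, and 63.5 and 96.3 at CT22 (first and second cycle). Both CT4 libraries lay below all others and both CT10 libraries came next, while the libraries of CT16 and CT22 overlapped. Means were 34.9 ± 1.39 CPM at CT4, 57.8 ± 2.15 at CT10, 81.6 ± 16.9 at CT16 and 79.9 ± 23.2 at CT22 (SD, n = 2 each). The order of the 2 night times was not stable: CT16 was the highest time in the first cycle and CT22 in the second. Levels at CT16 were 2.61-fold those at CT4 in the first cycle and 2.05-fold in the second.

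**Figure D1:**
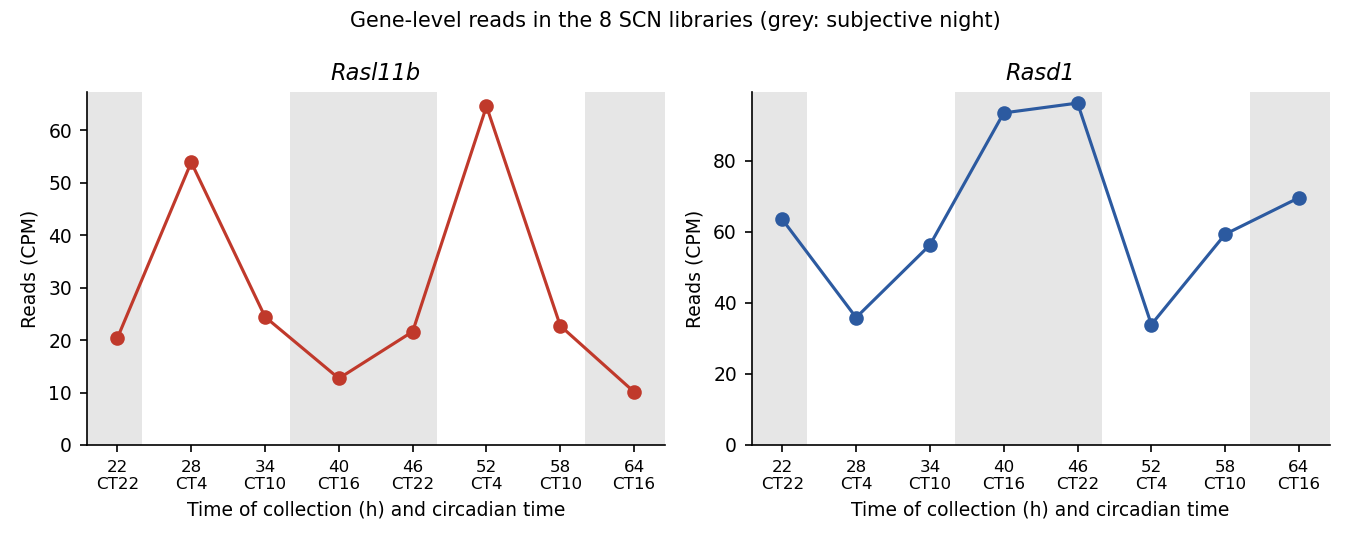
Level in CPM of Rasl11b (left) and Rasd1 (right) against the time of collection in hours, with the circadian time under it. Each point is 1 library of 3 pooled mice and grey marks the subjective night. Rasl11b peaks at CT4 in both cycles, where Rasd1 has its 2 lowest values.

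A 24-h cosine fitted to all 8 libraries placed the peak of Rasl11b at CT4.26 ± 0.299 h (SE) with a log2 peak-to-trough ratio of 2.42 ± 0.19. For Rasd1 the fitted peak was at CT17.4 ± 0.648 h with a log2 ratio of 1.30 ± 0.22. In linear terms the ratios were 5.34 for Rasl11b and 2.45 for Rasd1, and the fitted peaks were 13.2 h apart. The authors' deposited table, from its JTK rhythm test, gives a lag of 7 h for Rasl11b and 19 h for Rasd1, which are 12 h apart, and its header does not say from which time the lag is counted. The cycles fitted singly gave Rasl11b a peak of CT4.47 in the first and CT4.10 in the second, while Rasd1 moved more, with CT16.5 in the first and CT18.3 in the second.

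These genes were chosen with their daily pattern known, so their fits are descriptions. Of 15217 genes tested with the quasi-likelihood test of edgeR, 17 (0.112%) were called rhythmic at an adjusted p under 0.05, with Rasl11b among them and Rasd1 not, while 1308 genes (8.6%) had an unadjusted p under 0.05. DESeq2 called 98 genes (0.644%), with both among them. Both CT4 libraries exceeded the other 6 in 4.97% of genes, as in Rasl11b, and lay below the other 6 in 6.24%, as in Rasd1. In 1.74% of genes no circadian times overlapped, as in Rasl11b.

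Per kilobase of exon, the 2 genes changed places over the day. Over 1930 exon bases, Rasl11b averaged 14.9 CPM per kb, and over 1771 exon bases Rasd1 averaged 35.9 CPM per kb. The ratio of Rasd1 to Rasl11b in CPM per kb was 0.725 and 0.572 at CT4, 2.51 and 2.85 at CT10, 8.04 and 7.51 at CT16, and 3.39 and 4.85 at CT22 (first and second cycle). Rasl11b was thus the more abundant of the pair at CT4 and Rasd1 at all other times. Across the 8 libraries their log2 CPM had a Pearson correlation of -0.85 and a Spearman correlation of -0.83, a description of points that share library and depth.

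The remaining contrasts of the design were tested over all genes with edgeR. They use the same 8 libraries on which the pair was selected, and they enter the residual of the 24-h fit. Their values for these 2 genes are therefore not independent of the selection. In the second cycle against the first, Rasl11b differed by -0.00 ± 0.13 on the log2 scale (SE, adjusted p = 1) and Rasd1 by 0.08 ± 0.16 (adjusted p = 0.999), with both adjusted p-values from edgeR. No gene was called on this contrast (0%) by edgeR or DESeq2, and 543 genes had an unadjusted p under 0.05 (3.57%). The 12-h contrast sets CT4 and CT16 against CT10 and CT22. On it Rasl11b had a log2 difference of 0.22 ± 0.12 (SE, adjusted p = 0.727 by edgeR) and Rasd1 of -0.35 ± 0.13 (unadjusted p = 0.0169, adjusted p = 0.598 by edgeR). Neither passed, and edgeR called 0 genes (0%) while DESeq2 called 8 and 1137 had an unadjusted p under 0.05 (7.47%). Differences within these errors could not be detected with 2 libraries per time.

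The parts of Rasl11b were read unevenly, with most reads in the last exon. This exon, number 4 on mm9 chromosome 5 (74594134-74595638, 1505 bases), holds the end of the coding sequence and the 3' untranslated region. It had 597 and 647 reads at CT4, 275 and 237 at CT10, 135 and 113 at CT16, and 222 and 232 at CT22 (first and second cycle). The order of times was that of the whole gene, with a fitted log2 ratio of 2.35 ± 0.20 (SE) and a peak at CT4.26 ± 0.327 h. Exon 1 (74591325-74591615) had 2 to 29 reads per library, exon 2 (74592128-74592184) 1 to 17 and exon 3 (74593292-74593368) 5 to 29. Exon 4 is also by far the longest, with 1505 of the 1930 exon bases. Per kilobase, exon 1 held 268 reads over all libraries, exon 2 held 930, exon 3 held 1312 and exon 4 held 1633.

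Reads from Rasl11b introns, which mark RNA not yet spliced or transcripts that keep an intron, were also most numerous at CT4. Summed over the 3 introns they numbered 75 and 54 at CT4, 11 and 14 at CT10, 16 and 16 at CT16, and 28 and 13 at CT22 (first and second cycle). Both CT4 libraries lay above all others. CT22 overlapped CT10 and CT16, while both CT10 libraries lay below both CT16 libraries. The share of all introns with such an order was not counted, and the gene was chosen on its level over circadian time, so this is a description. Introns 2 (74592185-74593291) and 3 (74593369-74594133) passed the filter of 10 reads in 2 libraries. Their fitted log2 ratios were 1.98 ± 0.67 (SE) with a peak at CT1.84 ± 1.29 h for intron 2, and 3.13 ± 1 with a peak at CT5.17 ± 1.22 h for intron 3. Intron 3 would not have met the filter without its CT4 libraries (28 and 22 reads), so its fit is a description that leans on them. GENCODE M21 lists 2 retained-intron transcripts of Rasl11b, Rasl11b-202 with 131 bases of intron 2 and Rasl11b-203 with 218 bases of intron 3. Intron 1 had at most 9 reads in a library and 4 libraries at 0.

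Spliced reads of Rasl11b were few. Over the 3 junctions they came to 30 and 40 at CT4, 6 and 5 at CT10, 9 and 7 at CT16, and 29 and 6 at CT22 (first and second cycle). The CT4 libraries were the highest, but the first CT22 library nearly equalled them. Junction 2, shown above as acgaacgaaatgcagGTAATCTCTACACAA, had 16 reads in that library and 11 and 15 at CT4. Junction 3 had 19 and 24 reads at CT4 and at most 9 elsewhere, and junction 1 had 8 libraries between 0 and 6 reads.

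The first CT22 library also stood apart in how evenly transcripts were covered. In Rasl11b, exons 1 to 3 took 19.6% of exon reads there, against 3.85% to 11% in the other 7 libraries. Over 2899 genes, the median share of the first exon among reads of the first and last exon was 32.6% in this library and 24% to 28.1% in the others. Its part in the junction and intron counts of that library was not tested. Exon usage, a test of each exon against the rest of its gene, called neither axis for Rasl11b. By the Simes test of edgeR the adjusted p of the gene was 1 both by day against night and at dusk against dawn. Exon 2 had the lowest exon p on the first of these, with a log2 difference of -1.53 relative to the gene (unadjusted p = 0.0345, adjusted p = 1 by edgeR). This exon met the filter of 10 reads only through the first CT22 library (15 reads) and the second CT4 library (17 reads). It had 1 to 5 reads in each of the others. Among 8934 genes 0 (0%) passed on either axis, and 166 (1.86%) and 110 (1.23%) had an unadjusted Simes p under 0.05.

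Rasd1 was read over both of its exons. Exon 1 (chromosome 11, 59778022-59778488), which holds the start of the coding sequence, had 133 and 110 reads at CT4, 214 and 213 at CT10, 356 and 217 at CT16, and 246 and 269 at CT22 (first and second cycle). Exon 2 (59776565-59777868), with the rest of the coding sequence and the 3' untranslated region, had 292 and 341 reads at CT4, 474 and 530 at CT10, 828 and 620 at CT16, and 546 and 808 at CT22. Both exons were lowest at CT4 in both cycles, with fitted log2 ratios of 1.26 ± 0.25 (SE, peak CT16.9) for exon 1 and 1.27 ± 0.22 (peak CT17.4) for exon 2. Each exon is listed by the authors as a pair of overlapping rows with the same reads, so only the longer row was used, and exon usage was tested for this gene only with such rows kept, a choice made after the data were seen. The Simes test of edgeR then gave Rasd1 an adjusted p of 1 on both axes, where 3 of 11702 genes (0.0256%) passed by day against night and 1 (0.00855%) at dusk against dawn.

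The single junction of Rasd1, shown above as tctctatcctcacagGAGACGTTTTCATTC, had 20 and 25 reads at CT4, 34 and 51 at CT10, 101 and 43 at CT16, and 47 and 64 at CT22 (first and second cycle). The CT4 libraries were again the lowest, and the first CT16 library was the highest by a wide margin. Its fitted log2 ratio was 1.69 ± 0.43 (SE) with a peak at CT16.9 ± 0.974 h. The 153-base intron had 0 to 3 reads in 7 libraries and 10 in the second CT16 library, too few for a fit. Reads per kilobase were 124 in this intron and 3764 in exon 1 over all libraries.

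**Figure D2:**
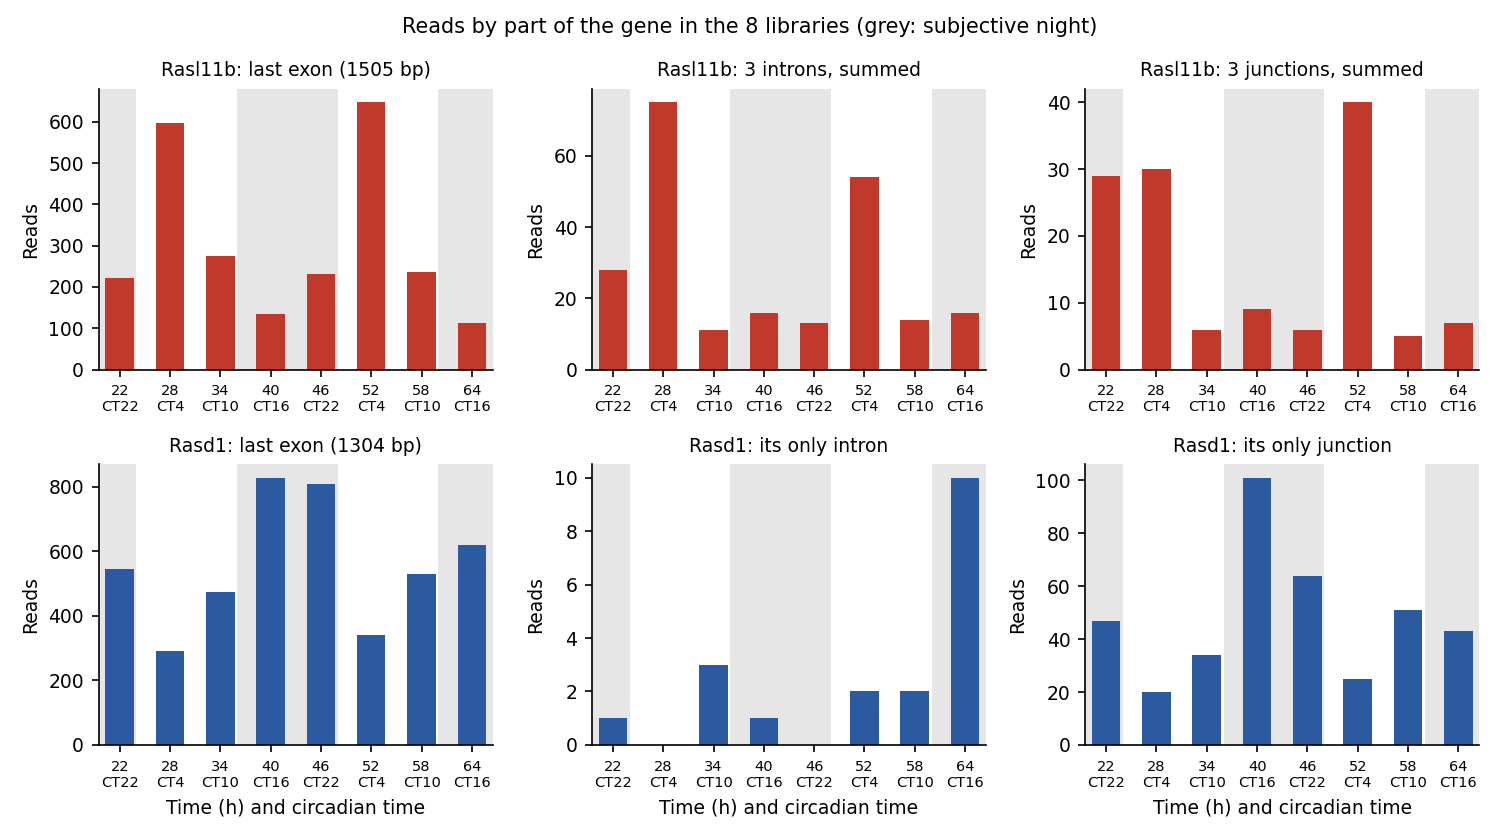
Reads as deposited in the last exon, the introns and the splice junctions of Rasl11b (top) and Rasd1 (bottom) against time of collection in hours and circadian time. Each bar is 1 library and grey marks the subjective night. The last exon and the introns of Rasl11b are highest in the 2 CT4 libraries, while the last exon and the junction of Rasd1 are lowest there.

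Reads on the opposite strand were rare. At gene level Rasl11b had 3 antisense reads in the second CT22 library, 7 in the second CT4 library and 0 in the other 6. Rasd1 had 2 in the second CT10 library and 0 elsewhere. Neither passed the filter, so no antisense rhythm was tested for them. Of the 3693 antisense genes that passed, edgeR called 0 (0%), and 128 (3.47%) had an unadjusted p under 0.05. In the antisense exon table, exon 2 of Rasd1 had 8 to 19 reads per library and exon 4 of Rasl11b 0 to 16, more than at gene level, and how the authors assigned reads to these tables is not given in the sources used here. The 16 antisense reads of exon 4 of Rasl11b, in the second CT4 library, stand beside 647 sense reads of the same exon.

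The genomic neighbours did not show the levels of either gene. Scfd2, which begins 5043 bases beyond Rasl11b, had 16.2 ± 4.29 CPM at CT4 and 12.6 ± 1.80 at CT16 (SD, n = 2), and 2700023E23Rik, 99628 bases on the other side, had 5.61 ± 0.815 and 7.26 ± 2.13. Med9, a Mediator subunit 694 bases from Rasd1, was nearly level, with 28.4 ± 3.88 CPM at CT4 and 28 ± 0.173 at CT16. Pemt, which makes phosphatidylcholine, lies 5602 bases on the other side of Rasd1 and had 8 to 25 reads per library. None of the 4 was called by edgeR (adjusted p of 0.713 for 2700023E23Rik, 0.696 for Scfd2, 0.983 for Med9 and 0.807 for Pemt).

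The closest relatives of the pair were not called rhythmic by edgeR. Rasd2, or Rhes, the other member of the Rasd branch and best known from the striatum, had 42.3 and 39.5 CPM at CT4, 35.7 and 53.4 at CT10, 48.3 and 35.6 at CT16, and 31.4 and 36.2 at CT22. Its groups overlapped, with a fitted log2 ratio of 0.40 ± 0.19 (SE, adjusted p = 0.699 by edgeR). Rasl11a, the paralog of Rasl11b, was barely detected, at 0.540 to 2.68 CPM, with a log2 ratio of 0.89 ± 0.72 (adjusted p = 0.841 by edgeR).

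Of 17 Ras-like relatives 14 passed the read filter, and 0 were called by edgeR or DESeq2, with 1 at an unadjusted p under 0.05. That gene was Gem, which binds calcium channel subunits, with 7.23 ± 0.176 CPM at CT4 and 3.43 ± 0.206 at CT16 (SD, n = 2; adjusted p = 0.422 by edgeR). Rit1 had 31.0 ± 1.02 CPM at CT4 and 39.0 ± 1.39 at CT16 (adjusted p = 0.605 by edgeR), and the neuronal Rit2 357 ± 5.14 and 333 ± 23.1 (adjusted p = 0.682 by edgeR). The median log2 ratio of the list was 0.36, beside 0.29 over all genes tested. Over all genes, edgeR called 0.112% and DESeq2 0.644%, and 8.6% had an unadjusted p under 0.05 by edgeR. At such call rates, 0 calls in this list or in those below say little about the lists.

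The classical Ras, Ral, Rap and Rheb genes, are the central switches of the pathway. All 15 in the table were tested, 0 were called by edgeR or DESeq2 and 0 had an unadjusted p under 0.05, with a median log2 ratio of 0.22, below that of all genes. Hras1 ranged from 34.4 to 47.3 CPM (adjusted p = 0.748 by edgeR) and Rhebl1 from 2.88 to 10.1 CPM (adjusted p = 0.660 by edgeR).

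Among 24 tested exchange factors, GAPs and inhibitors, 0 were called by either tool and 2 had an unadjusted p under 0.05, with a median log2 ratio of 0.26. Rasa4, a GAP, had 36.8 ± 7.06 CPM at CT4 and 53.9 ± 5.87 at CT16 (adjusted p = 0.268 by edgeR). The GAP gene Rasa2 had 47.4 ± 2.82 CPM at CT4 and 32.7 ± 4.11 at CT10 (adjusted p = 0.571 by edgeR). Rasa1 had 74.2 ± 4.59 CPM at CT4, 67.5 ± 5.95 at CT10, 83.5 ± 0.780 at CT16 and 82.0 ± 3.62 at CT22 (adjusted p = 0.593 by edgeR). Of 14 genes of the Raf-MEK-ERK cascade, 0 were called by either tool and 3 had an unadjusted p under 0.05, with a median log2 ratio of 0.32. Mapk3, the gene of ERK1, had 84.0 ± 1.23 CPM at CT4 and 121 ± 12.5 at CT10 (adjusted p = 0.465 by edgeR). The ribosomal S6 kinase genes Rps6ka6 and Rps6ka3 had log2 ratios of 0.54 and 0.47 (adjusted p = 0.440 and 0.553 by edgeR).

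The 13 genes whose products act with Rasd1 or on it were all tested, and 0 were called by either tool, with 1 at an unadjusted p under 0.05 and a median log2 ratio of 0.23. Nos1ap, the adaptor that links Rasd1 to nitric oxide synthase, had 46.1 ± 4.99 CPM at CT4 and 36.8 ± 4.62 at CT16 (SD, n = 2; adjusted p = 0.440 by edgeR). Nr3c1, the glucocorticoid receptor, had 104 ± 4.02 CPM at CT4 and 128 ± 9.66 at CT16 (adjusted p = 0.601 by edgeR). Gnai2, an inhibitory G protein, had 172 ± 2.43 CPM at CT4 and 219 ± 7.23 at CT10 (adjusted p = 0.665 by edgeR).

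Rasd1 was also set beside 16 other genes that glucocorticoids induce. All 16 had a fitted dusk-over-dawn value (CT10 and CT16 over CT22 and CT4) above 0, as did Rasd1 and as did 51.4% of all genes, and 10 had a day-over-night value below 0, as did Rasd1 and 52% of all genes. No member was called by edgeR or DESeq2, and 7 had an unadjusted p under 0.05 by edgeR, as did 8.6% of all genes. The median log2 ratio was 0.63, beside 0.29 over all genes. Tsc22d3, an anti-inflammatory mediator also known as GILZ, had 76.4 and 62.1 CPM at CT4, 132 and 138 at CT10, 104 and 127 at CT16, and 101 and 109 at CT22. Like Rasd1 it was lowest in the 2 CT4 libraries, but its highest libraries were at CT10 (adjusted p = 0.364 by edgeR). The kinase gene Sgk1 had 29.1 ± 5.03 CPM at CT4 and 79.5 ± 29.2 at CT10 (adjusted p = 0.329 by edgeR), and Plin4, of lipid droplets, 6.74 ± 1.54 and 15.1 ± 4.28 (adjusted p = 0.409 by edgeR). Oligodendrocyte markers ran the same way, with 12 of 12 above 0 at dusk over dawn and a median log2 value of 0.60, beside 0.35 for the glucocorticoid-responsive list. With the oligodendrocyte score as a term in the model, an alternative added after the data were seen, 3 members instead of 7 had an unadjusted p under 0.05. The log2 ratio was then 0.47 instead of 0.82 for Tsc22d3, 0.91 instead of 1.23 for Sgk1 and 0.59 instead of 1.27 for Plin4. The part of oligodendrocyte content in these values was not tested. Without the oligodendrocyte term, the fitted peaks of 10 members fell between CT10 and CT16. Those of 5 fell between CT16 and CT22, where that of Rasd1 lay. Among all 15217 genes tested, 4116 and 3943 had fitted peaks in these spans.

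**Figure D3:**
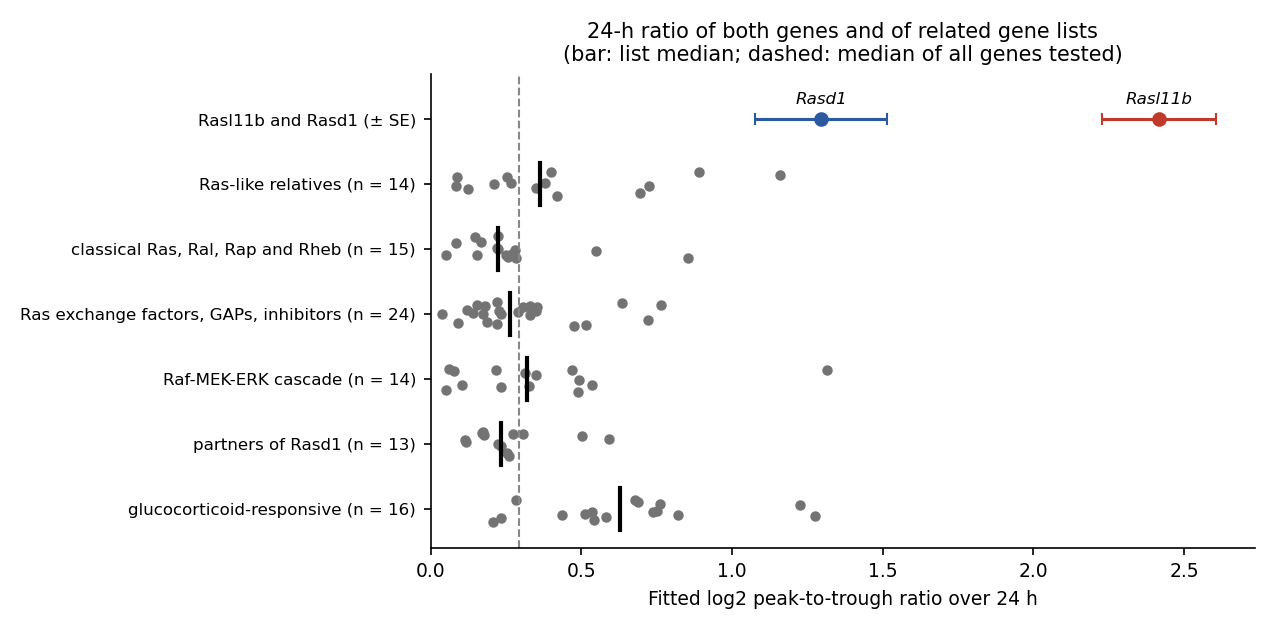
Fitted log2 peak-to-trough ratio over 24 h of Rasl11b and Rasd1 (top row, with SE) and of the tested genes of 6 related lists, 1 point per gene, with the list median as a bar and the median of all genes tested (0.29) as a dashed line. Rasl11b, at 2.42, lies to the right of every listed gene, and Ksr2 of the Raf-MEK-ERK cascade, at 1.32, a gene singled out after its value was seen, is the only listed gene to the right of Rasd1.

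Oligodendrocyte markers moved with the same times. Their summed level was 5097 and 8462 CPM in the CT4 libraries, where Rasl11b was highest and Rasd1 lowest, against 8192 to 15960 CPM in the other 6, so the CT4 and CT16 ranges overlapped. With the oligodendrocyte score as a model term, added after the data were seen, the log2 ratio was 2.27 for Rasl11b and 1.24 for Rasd1. Without the term the ratios were 2.42 and 1.30. The SCN neuron markers summed to 960 to 1191 CPM at CT4, 841 to 896 at CT10, 685 to 785 at CT16 and 939 to 1361 at CT22. The part of either marker set in the level of Rasl11b or Rasd1 was not tested.

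Among 11899 genes with a mean of at least 5 CPM, those with the pattern most like Rasl11b over the 8 libraries were Pfdn4, Dusp4, H3f3b, Coq10b and Ccdc148, with Pearson correlations of log2 CPM from 0.95 to 0.97. Their shape was alike but not their size: Dusp4, which removes phosphate from MAP kinases, reached a log2 ratio of 2.66 ± 0.29 (SE), while the others had 0.38 for Pfdn4 (a prefoldin chaperone subunit), 0.41 for H3f3b (histone H3.3), 0.64 for Coq10b (a coenzyme Q binding protein) and 0.37 for Ccdc148. Dusp4 had 17.5 and 24.6 CPM at CT4, 7.82 and 10.9 at CT10, 3.92 and 2.95 at CT16, and 8.23 and 5.82 at CT22 (first and second cycle), and its fitted peak at CT4.59 lay within 1 SE of its own from that of Rasl11b.

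The genes most like Rasd1 were Gbp7, Nck1, Dkc1, Grm3 and 6030405A18Rik, with Pearson correlations from 0.95 to 0.97. The largest log2 ratio among them was 1.17 ± 0.30 (SE) in 6030405A18Rik, which had 9.87 and 13.2 CPM at CT4, 20.3 and 17.9 at CT10, 27.4 and 20.3 at CT16, and 21.7 and 35.3 at CT22. Grm3, a metabotropic glutamate receptor, had a log2 ratio of 0.58, and Gbp7 (a guanylate-binding protein), Nck1 (an adaptor protein) and Dkc1 (dyskerin) had 0.52, 0.36 and 0.25. All of these likenesses rank genes on the same 8 libraries and carry no test.

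**Figure D4:**
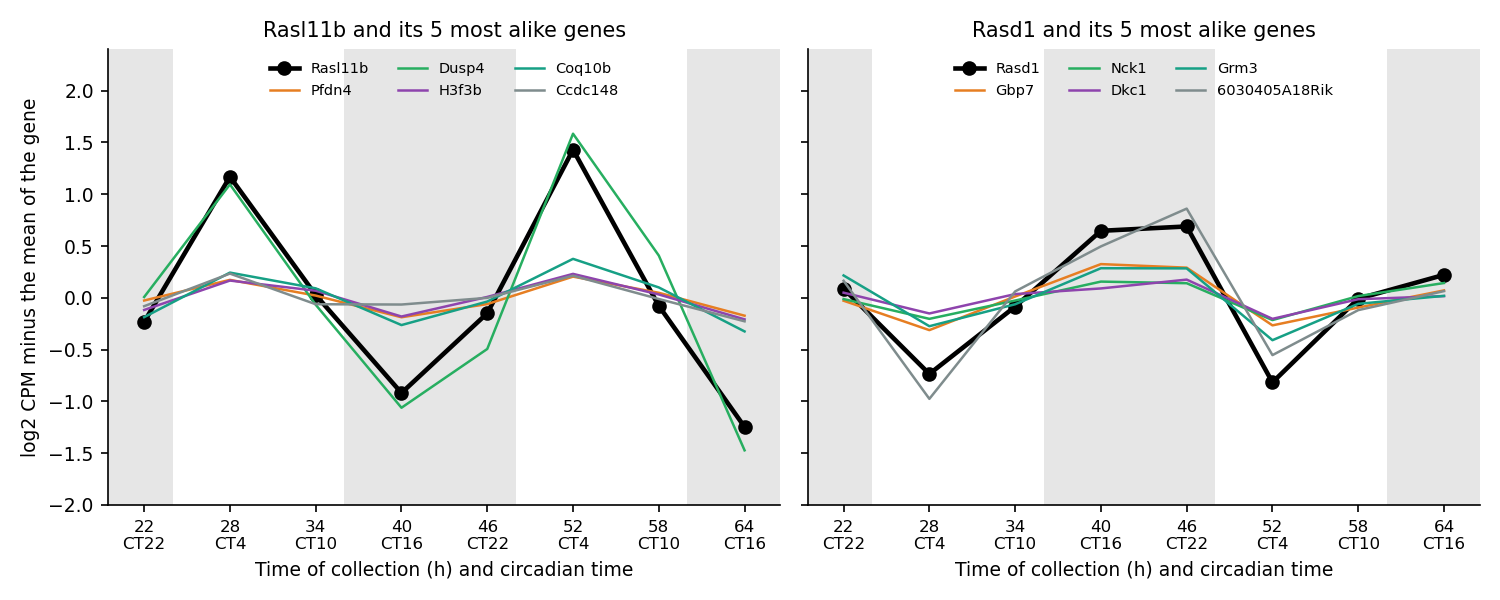
log2 CPM minus the mean of each gene against time of collection in hours and circadian time, for Rasl11b (left) and Rasd1 (right) in black with points and their 5 most alike genes in colour. Each line joins 8 libraries and grey marks the subjective night. Dusp4 spans the range of Rasl11b and 6030405A18Rik that of Rasd1, while the other 8 genes follow the shape over a smaller range.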

How the data were processed

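Per the labels' protocols, RNA of 3 mice was pooled per library and prepared with a strand-preserving polyA kit. The submitters' processing notes name STAR 2.3.0e and the mm9 build. What the authors deposited are whole-number counts for genes, exons, introns and junctions, with no counting tool or strand setting stated. Column totals were nearly equal within each table except junctions (3196136 to 3437120), and ran from 25232810 to 25232813 for sense exons. How depth was made equal is not stated, so the counts cannot be taken as raw. For the same reason antisense or intron shares cannot be compared between libraries. Circadian times were taken from the sample titles, which begin at CT22, while the labels' protocol gives CT18 as the start of collection. This was not resolved, and every circadian time and fitted peak rests on the titles. The lag of the authors' JTK test is given in hours, per the file headers.

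Counts were fitted with edgeR 4.0.16 in R 4.3.3 (TMM, quasi-likelihood F test, Benjamini-Hochberg at 0.05, at least 10 reads in 2 libraries). The model had a day-night and a dusk-dawn term, a 24-h cosine that left 5 residual degrees of freedom. SEs came from the F statistics by the delta method. Introns, junctions and antisense counts were scaled with the sizes estimated from sense genes. DESeq2 1.42.0 (likelihood ratio test) was the alternative, with leave-outs, scaling, filters and added terms. Exon usage used diffSpliceDGE. In simulated counts over 15217 genes, the 24-h test recovered 76% of the planted rhythms at a log2 ratio of 1 and 100% at 2. Rhythms were planted only in better-read genes, and all genes were given the same spread. The recovery therefore does not hold for genes with few reads or a larger spread.

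The members and lists were chosen with earlier results of these data known. Named genes were both members, Rasl11a, Rasd2, up to 3 genes per list with the lowest p, the genomic neighbours and the 5 most alike genes of each member. A gene that this rule names is not reported here. Of the listed symbols, Hras and Spry3 did not match the gene table, and the table lists Hras1.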

Additional observations from a re-analysis of the deposited data

How the results depend on the processing

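The fitted peak of Rasl11b stayed between CT4.06 and CT4.45 and its log2 ratio between 2.22 and 2.65 without any 1 library, and edgeR called it in all 8 such fits. For Rasd1 the peak ran from CT16.2 to CT17.9 and the log2 ratio from 1.12 to 1.58; edgeR called it without CT22 replicate 2 or CT16 replicate 2, without a filter and with the 12-h contrast as a term, and in no other edgeR setting. The count of rhythmic genes, 17, was 98 by DESeq2, 362 without a filter, 27 with the 12-h contrast as a term and 7 to 43 without 1 library (43 when CT16 replicate 1 was left out, 8 and 7 when CT10 replicate 1 or 2 was). The 12-h contrast called 8 genes by DESeq2, 169 without a filter and 0 to 33 without 1 library (33 without CT4 replicate 2), and the cycle contrast 2 without a filter and 0 to 2 without 1 library. Antisense rhythm, with 0 of 3693 genes called (128 at an unadjusted p under 0.05), had 1 call with its own TMM sizes, 1 at a minimum of 5 reads and 0 to 1 without 1 library. Exon usage gained 3 genes by day against night and 1 at dusk against dawn with overlapping exons kept, and 0 to 15 and 0 to 0 without 1 library. Without 1 library, the log2 cycle difference of Rasl11b ran from -0.153 to 0.110 and that of Rasd1 from -0.186 to 0.253, changing sign in 4 fits of Rasl11b and 2 of Rasd1. The dusk-dawn usage of the last exon of Rasl11b ran from -0.0119 to 0.0823 and changed sign in 2 fits. None of these passed the threshold. By Spearman correlation 2 of the 5 genes most like Rasl11b and 0 of those most like Rasd1 remained, and 5 and 5 with a prior count of 0.5. Without a filter, 6 glucocorticoid-responsive genes and 1 GAP, Rasa4, were called, and with the 12-h contrast as a term Tsc22d3 was. The cause of these moves was not tested. The labels give no replicate numbers, and the fit nearest to a paired one, with the cycle as a term, called 21 genes, with Rasl11b among them and Rasd1 not.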

Other observations

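The share of Rasd1 exon reads that fell in exon 1 was lower in the second cycle than in the first at each circadian time. Exon 1 took 24.4% of exon reads at CT4, 28.7% at CT10, 25.9% at CT16 and 25.0% at CT22 in the second cycle, against 31.3%, 31.1%, 30.1% and 31.1% at the same times in the first. The cycles did not overlap, while the gene-level reads of Rasd1 showed no difference between them past the threshold. The share was looked at after its values were seen and carries no test. Over 2899 genes the median share of the first exon did not divide in this way, with 25% to 28.1% in the second cycle and 24% to 32.6% in the first. A median does not tell how many single genes divide by cycle. That was not counted, so the division cannot be called particular to Rasd1.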
